A study of Mus musculus with 8 samples.

Results

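The genes described here encode 10 regulators of DNA methylation and Polycomb repression: Dnmt1, Dnmt3a, Dnmt3b, Uhrf1, Tet1, Tet2, Tet3, Ezh2, Eed and Suz12. They were chosen by gene name from a count table of 19330 genes. All 10 were in the table and all 10 passed the filter on low counts, among 16434 genes tested. The counts come from RNA-seq of regulatory T cells (Tregs) that were polarized in culture for 3 days from naive splenic CD4+ T cells taken from B6 mice. The control group, 4 libraries, was polarized without oxPAPC, a mixture of oxidized phospholipids. The oxPAPC group, 4 libraries, was polarized with it, and both groups share the genotype, the tissue and the polarization. The labels give neither the age of the mice nor whether libraries came from separate mice or cultures, so a p-value reflects no more than the spread among these libraries, which may be technical.

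DNA methylation at CpG sites silences promoters and is copied at each cell division by the maintenance methyltransferase Dnmt1, which Uhrf1 brings to newly replicated DNA. Dnmt3a and Dnmt3b set new methylation, and the Tet dioxygenases oxidize methylated cytosine on the way to its removal. Polycomb repressive complex 2 (PRC2) methylates a lysine in the tail of histone H3 through its enzyme Ezh2, which works only with the core subunits Eed and Suz12. In Tregs, loss of methylation at an enhancer of Foxp3, the lineage-defining transcription factor, is known to stabilize its expression. Ezh2 is known to be induced when T cells are activated. On GRCm38.p6 the genes lie at chr9:20907209-20959888 (Dnmt1), chr17:56303321-56323486 (Uhrf1), chr12:3806007-3914443 (Dnmt3a), chr2:153649450-153687730 (Dnmt3b), chr10:62804570-62908996 (Tet1), chr3:133463679-133545139 (Tet2), chr6:83362373-83459084 (Tet3), chr6:47530139-47595341 (Ezh2), chr7:89954654-89980983 (Eed) and chr11:79993106-80034123 (Suz12). The measurements here are of RNA, so neither methylation nor histone marks were read.

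Libraries held between 14017583 and 21619731 gene counts. Gm26917, a noncoding gene, took 8.59% to 29.1% of them, and its share was not even between libraries of a group. Foxp3 lay between 117 and 200 CPM (counts scaled to library size by TMM, on the usual CPM scale) in control and between 88.5 and 211 CPM with oxPAPC. The summed level of 7 Treg markers was 1355 to 1716 CPM in control and 1489 to 2086 CPM with oxPAPC, and none of the 7 passed the test. Markers of other cell types were low but partly higher with oxPAPC. The summed level of 5 B lineage markers was 9.52 to 14.5 CPM in control and 15.2 to 18.1 CPM with oxPAPC, that of 2 CD8 markers 6.72 to 8.90 and 10.9 to 18.7 CPM, and that of macrophage markers 3.47 to 4.39 and 7.99 to 10.7 CPM. Of these, 3 of 5 B lineage, 1 of 2 CD8 and 1 of 4 tested macrophage markers passed, as did 1 of 2 tested markers each of natural killer and dendritic cells. Over all genes tested 13.3% passed. Cd8a passed (means of 2.17 CPM in control and 6.81 CPM with oxPAPC), while Cd8b1 did not (5.96 and 6.33 CPM). The macrophage marker that passed was Mpeg1 (0.203 and 4.02 CPM). Cd79b, a B lineage marker, was lower with oxPAPC (5.46 and 3.65 CPM) and did not pass. The part of these markers in the results below was not tested. In bulk RNA, fewer cells of a type and less RNA per cell cannot be told apart.

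None of the 10 regulators passed the test between oxPAPC and control libraries at an adjusted p under 0.05. Over all genes tested, 13.3% passed, 6.75% higher and 6.52% lower with oxPAPC. The test was the quasi-likelihood test of edgeR, adjusted by Benjamini-Hochberg over all 16434 genes. At an unadjusted p under 0.05, 1 of the 10 passed, Tet1, against 27.5% of all genes, and with DESeq2 none of the 10 had an adjusted p under 0.05, against 13.8% of all genes. The fold changes were positive for 5 and negative for 5, with a median log2 fold change of -0.04, and the median over all genes tested was -0.01. With library size scaling the median of all genes was 0.12, and Ezh2 turned from -0.08 to 0.041. In 1 of the 10, Tet3, the CPM ranges of the groups did not overlap, which was so for 19.4% of all genes.

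**Figure D1:**
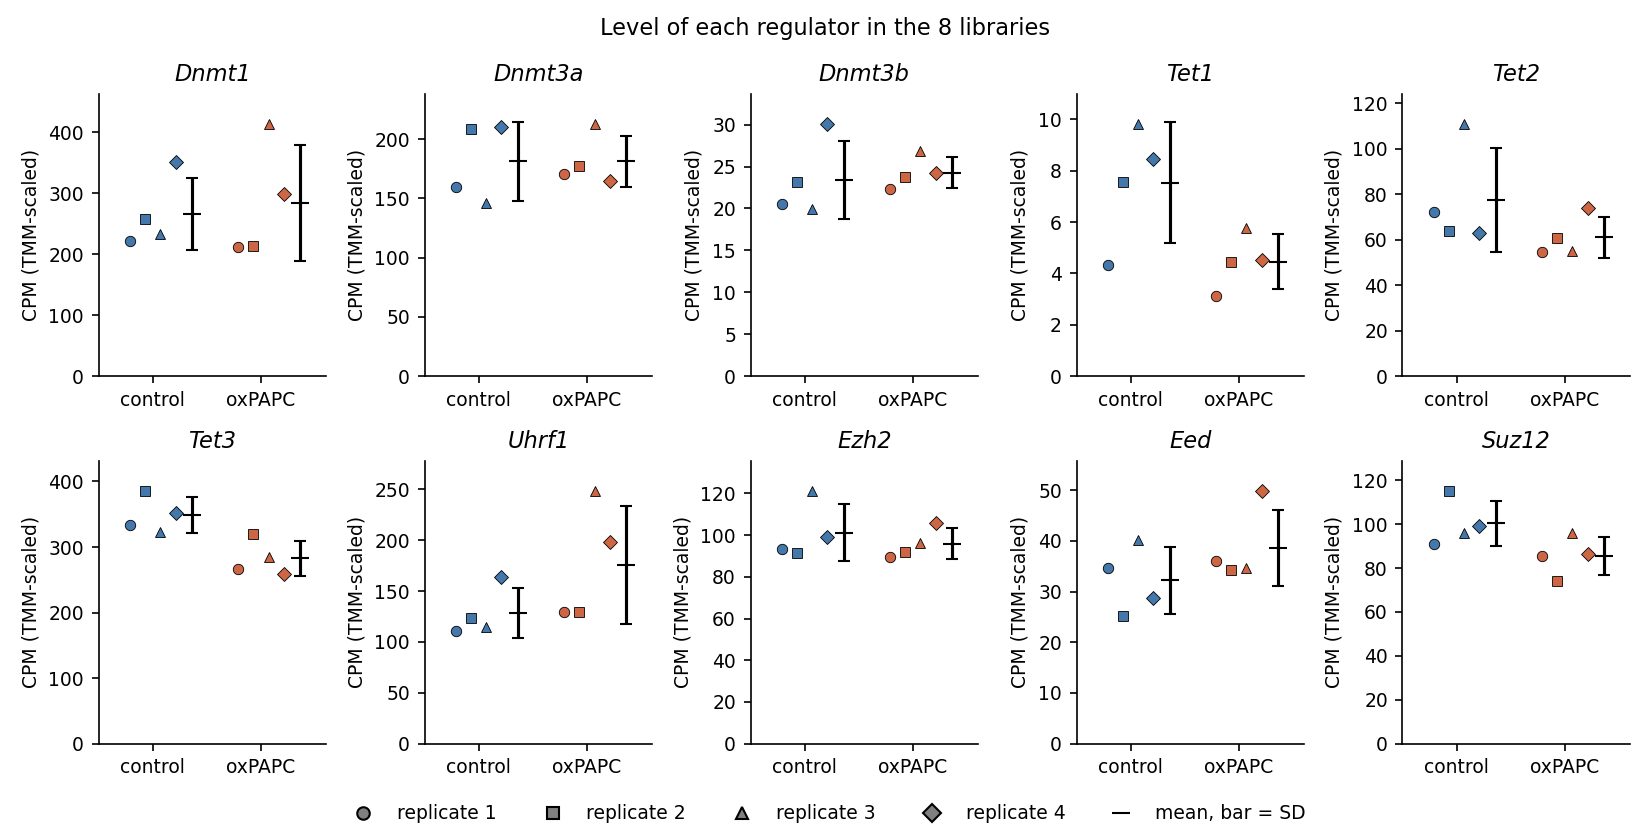
Level of each of the 10 regulators in CPM (TMM-scaled, linear axis from 0) in the 4 control and 4 oxPAPC libraries; symbols mark the replicate number and bars the mean and SD. Only the Tet3 groups do not overlap, and oxPAPC replicate 3 is the highest library for Dnmt1 (414 CPM) and Uhrf1 (248 CPM).

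The maintenance pair was abundant and varied widely between libraries of a group. Dnmt1 had 222, 257, 233 and 352 CPM in control replicates 1 to 4 and 212, 213, 414 and 299 CPM in oxPAPC replicates 1 to 4. The lowest and the highest library were both oxPAPC libraries. Its log2 fold change was 0.10 ± 0.23 (SE, adjusted p in edgeR = 0.835), with a 95% interval of -0.40 to 0.59. Without oxPAPC replicate 3 it turned to -0.142, also without a call. Uhrf1 had 111, 123, 115 and 164 CPM in control and 129, 129, 248 and 198 CPM with oxPAPC, so all 4 oxPAPC libraries lay above 3 of the 4 control libraries. Its mean was 128 ± 24.6 CPM in control and 176 ± 58.3 CPM with oxPAPC (SD, n = 4 each). The log2 fold change of 0.46 ± 0.22 (SE, adjusted p in edgeR = 0.197) did not pass, and its 95% interval of -0.01 to 0.93 reaches from no change to a 1.90-fold increase. It was 0.243 without oxPAPC replicate 3 and 0.287 with quality weights on the libraries, also without a call.

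Dnmt1 and Uhrf1 were high in the same libraries of a group, and their count ratio was computed in each. Dnmt1 had 2, 2.1, 2.03 and 2.14 counts per Uhrf1 count in control replicates 1 to 4 and 1.64, 1.65, 1.67 and 1.51 in oxPAPC replicates 1 to 4. The ratio compares counts of genes of different length and is read only between libraries. It does not depend on how libraries are scaled, and its ranges in the groups did not overlap. Of the 45 pairs that the 10 genes form, 3 (6.67%) had count ratios without overlap, the others being Tet1 to Uhrf1 and Tet2 to Eed. Over all pairs of the 16394 tested genes with a count in every library the share was 19.7%, so such ratios were not more frequent among the 10 genes. Tet2 had 2.07 to 2.75 counts per Eed count in control and 1.49 to 1.77 in oxPAPC libraries. These ratios were computed after the counts had been seen and carry no test.

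The promoter sequences of this pair are shown because both genes were high in the same libraries. RefSeq windows on GRCm38.p6, from 250 bases before to 50 after a transcription start, were found for all 10 genes, 15 windows in all. Dnmt1 has several starts. The most upstream one, at position 20959888 of chromosome 9, is poor in CpG, with 2 CpG in its window, while the next, at position 20952979, has 12. The median over 32851 windows was 7. The most downstream Dnmt1 start, at position 20952623, has 33. Uhrf1 has an upstream start with 12 CpG, at position 56303337 of chromosome 17, and a downstream one with 33, at position 56304313, so both genes have CpG-poorer and CpG-richer starts. Of all windows, 91.4% have fewer than 33 CpG. The most downstream Dnmt1 start and the upstream Uhrf1 start are not printed, and counts per gene do not show which start was used. The 100 bases before the other starts are printed 5′ to 3′ on the strand of the gene, with CpG, the substrate of the methyltransferases, in capitals. They span chr9:20959889-20959988 (minus strand), chr9:20952980-20953079 (minus strand) and chr17:56304213-56304312 (plus strand).
Dnmt1, upstream start: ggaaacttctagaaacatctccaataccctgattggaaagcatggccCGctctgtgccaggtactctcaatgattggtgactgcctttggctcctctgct
Dnmt1, next start: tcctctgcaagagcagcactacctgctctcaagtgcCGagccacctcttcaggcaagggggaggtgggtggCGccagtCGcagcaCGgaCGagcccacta
Uhrf1: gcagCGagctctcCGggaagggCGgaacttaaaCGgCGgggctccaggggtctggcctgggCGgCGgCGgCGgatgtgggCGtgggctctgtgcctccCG

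E2F factors switch on genes of DNA replication, so the windows were searched on both strands for TTTCCCGC and TTTGGCGC, letters of the E2F motif. Of all windows, 1.56% hold a match. Among the 10 genes it was found at 1 start each of Dnmt1, Ezh2 and Suz12, at base 34 after the most downstream Dnmt1 start, base 4 after the Ezh2 start and base -219 relative to the Suz12 start. The matches are printed with 8 bases on each side and with the motif in capitals.
Dnmt1: gggcagcgTTTGGCGCgggctgtg
Ezh2: ttgctgcgTTTGGCGCtcggtccg
Suz12: cccctcatTTTCCCGCgaattcag
A match is a description of the letters only. The windows were also searched for the NRF1 motif and for the CCAAT box, likewise on both strands. The former is in 0.971% of all windows and matched 2 Dnmt1 starts, the middle and the most downstream one, and no other of the 10 genes. CCAAT is in 37.4% of all windows and matched starts of Dnmt1, Uhrf1, Ezh2, Eed, Suz12 and Tet3. All these letters were chosen after the windows had been seen.

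Uhrf1 followed the summed level of 20 S phase genes across the 8 libraries, with Pearson's r of 0.98 (exact permutation p = 9.92e-05, adjusted 0.00843 over 85 relations) and Spearman's rho of 0.97 (exact permutation p = 4.96e-04, adjusted 0.0422). Without oxPAPC replicates 3 and 4, the libraries farthest from the median, r was 0.92. Within the 4 control and within the 4 oxPAPC libraries r was 0.99 and 0.98. Within these groups r of Uhrf1 was 0.78 and 1.00 with total counts, and 0.60 and 1.00 with G2 and mitosis genes. With the Gm26917 share it was -0.03 and -0.93. Over all 8 libraries these r were 0.54, 0.27 and -0.53. In the oxPAPC libraries, relations of Uhrf1 with S phase, with G2 and mitosis and with depth thus cannot be told apart. The S phase sum was 1759, 1879, 1734 and 2201 CPM in control replicates 1 to 4 and 2071, 1957, 3015 and 2470 CPM in oxPAPC replicates 1 to 4. Dnmt1 followed the same sum within each group, with r of 0.99 in control and 0.99 in oxPAPC libraries. Over all 8 libraries its r was 0.83 (exact permutation p = 0.0118, adjusted 0.147) and its rho 0.57 (exact permutation p = 0.151, adjusted 0.459), and r fell to 0.54 without the same pair of libraries. The 85 relations are the pairs among the 10 genes and each gene against S phase genes, G2 and mitosis genes, total counts and the Gm26917 share. Only that of Uhrf1 with S phase genes passed adjustment. Libraries with high Dnmt1 were also deeply sequenced ones, with r of 0.82 against total counts and rho of 0.86 (exact permutation p = 0.0148 and 0.0107, adjusted 0.147 and 0.13), and 0.73 without the 2 libraries farthest from the median total.

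**Figure D2:**
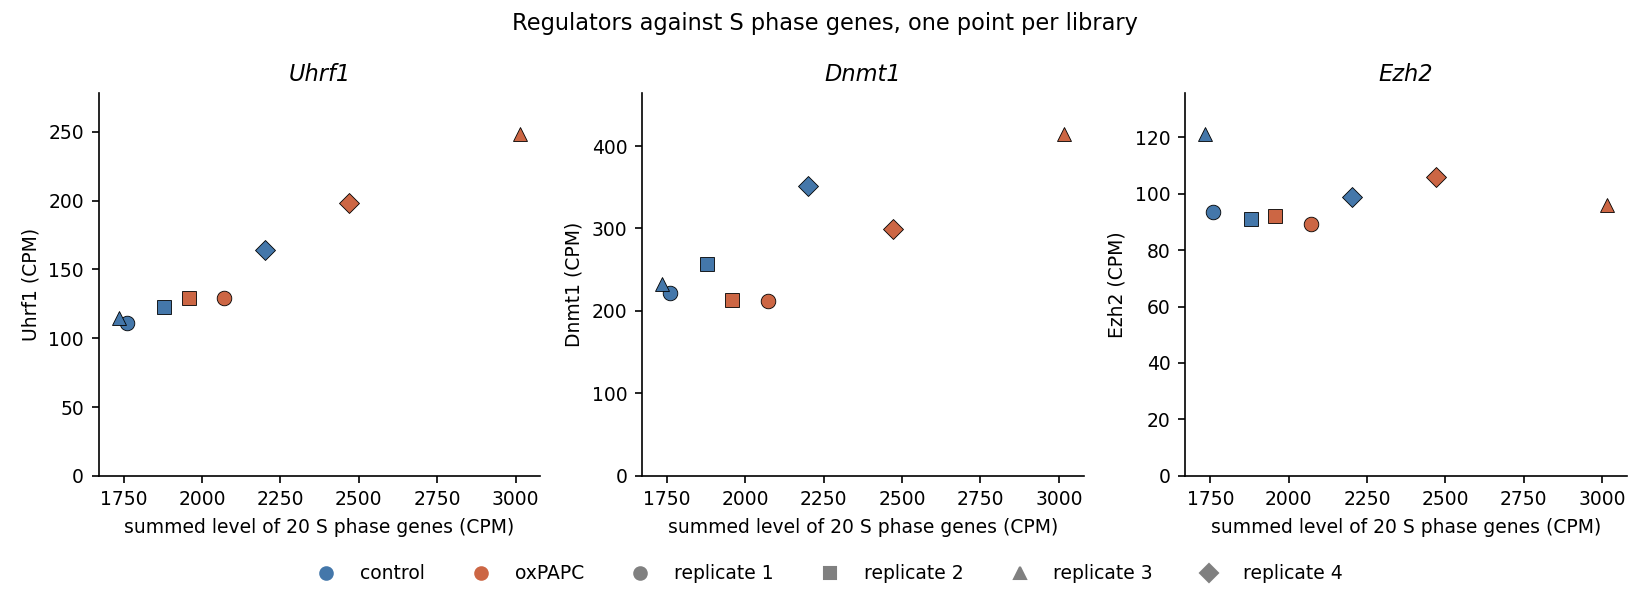
Uhrf1, Dnmt1 and Ezh2 in CPM against the summed CPM of 20 S phase genes, one point per library, coloured by group and shaped by replicate number. Uhrf1 points lie along a single line, Dnmt1 points follow a separate line in each group, and Ezh2 stays between 89.3 and 121 CPM over the whole range of the sum.

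All 20 S phase genes had a positive log2 fold change, with a median of 0.31, while 48.7% of all genes tested were positive. Of the 20, 18 did not pass and none fell, so the share called lay below the 13.3% over all genes. The other 2 rose. They were Tyms, the thymidylate synthase, with 32.1 to 55.8 CPM in control and 71.7 to 93.6 CPM with oxPAPC (log2 fold change 0.82, edgeR adjusted p = 0.00608), and Ccne1, a cyclin of the entry into S phase, with a log2 fold change of 0.52 (edgeR adjusted p = 0.0382). The call of Ccne1 was lost in 6 of 8 fits that left out a library (adjusted p up to 0.115) and kept without control replicate 4 or oxPAPC replicate 2, and lost with the replicate block (0.0771). Pcna, the replication clamp that recruits many replication factors, had 153 to 245 CPM in control and 258 to 390 CPM with oxPAPC and did not pass (log2 change 0.59, edgeR adjusted p = 0.0541). Pcna was named after its values were seen. The median log2 fold change of 12 genes of G2 and mitosis was -0.28. Of them 1 fell (8.33% called, with 13.3% over all genes), Cenpf, a kinetochore protein. Its call was kept in 1 of 8 fits that left out a library, without oxPAPC replicate 3, with adjusted p up to 0.137 in the others, and lost with RLE scaling (0.0558), library size scaling (0.288) and no filter (0.0552).

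The de novo methyltransferases did not differ detectably between the groups. Dnmt3a had 160, 209, 146 and 210 CPM in control replicates 1 to 4 and 171, 177, 213 and 165 CPM in oxPAPC replicates 1 to 4. The oxPAPC range lay almost wholly inside the control range. Its log2 fold change was 0.00 ± 0.17 (SE, adjusted p in edgeR = 0.990), with a 95% interval of -0.35 to 0.36. Dnmt3b had 20.5, 23.2, 19.9 and 30.1 CPM in control and 22.3, 23.8, 26.8 and 24.2 CPM with oxPAPC, and control replicate 4 was the highest of the 8. The log2 fold change was 0.05 ± 0.15 (SE, adjusted p in edgeR = 0.869), with an interval of -0.28 to 0.38. Of the reads per length of the 3 methyltransferases, Dnmt1 took 69.9 ± 2.29% in control and 70.2 ± 5.15% in oxPAPC libraries, and Dnmt3a took 21.2 ± 2.29% and 20.8 ± 3.64% (SD, n = 4 each).

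The 3 Tet genes all had negative log2 fold changes, and none passed. Tet1, the least abundant of the 10, had 4.32, 7.55, 9.83 and 8.46 CPM in control replicates 1 to 4 and 3.13, 4.43, 5.78 and 4.51 CPM in oxPAPC replicates 1 to 4, from 65 to 215 counts per control and 42 to 131 counts per oxPAPC library. Control replicate 1 lay among the oxPAPC libraries, and the other control libraries lay above all of them. The log2 fold change of -0.75 ± 0.26 (SE, adjusted p in edgeR = 0.0740) had a 95% interval of -1.31 to -0.19. Tet1 is the gene for which the outcome depended on single libraries: its adjusted p was 0.0260 without control replicate 1, 0.0463 without oxPAPC replicate 3 and 0.0496 when the replicate number entered as a block, and up to 0.188 (without oxPAPC replicate 1) in the other fits that left out a library. The authors' deposited table gives it an adjusted p of 0.0560. Tet1 also moved with the G2 and mitosis genes across libraries (r = 0.86, rho = 0.90, exact permutation p = 0.00523 and 0.00456, adjusted 0.147 and 0.129), with r of 0.94 without the 2 farthest libraries. Suz12 did so too (r = 0.80, rho = 0.90, exact permutation p = 0.0101 and 0.00456, adjusted 0.147 and 0.129), with r of 0.55 without those libraries. Neither relation passed adjustment, and their part in the fold changes was not tested.

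Tet3, the main Tet transcript, had 334, 385, 323 and 352 CPM in control and 267, 320, 285 and 259 CPM with oxPAPC. The ranges did not overlap, but the gap between them was 320 to 323 CPM. Its level was 348 ± 27.1 CPM in control and 283 ± 27.1 CPM with oxPAPC (SD, n = 4 each), and the log2 fold change of -0.30 ± 0.15 (SE, adjusted p in edgeR = 0.223) did not pass, with an interval of -0.63 to 0.03. With library size scaling it was -0.158. Tet2, often mutated in blood cancers, had 72.0, 63.8, 111 and 63.0 CPM in control and 54.6, 60.6, 55.1 and 74.1 CPM with oxPAPC. Control replicate 3 stood above the 7 others. Its log2 fold change was -0.34 ± 0.19 (SE, adjusted p in edgeR = 0.265), and -0.117 without that library. Per length, Tet3 took 80.5 ± 5.18% of the Tet reads in control and 81.2 ± 2.94% in oxPAPC libraries, and Tet1 took 1.87 ± 0.547% and 1.38 ± 0.324% (SD, n = 4 each).

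**Figure D3:**
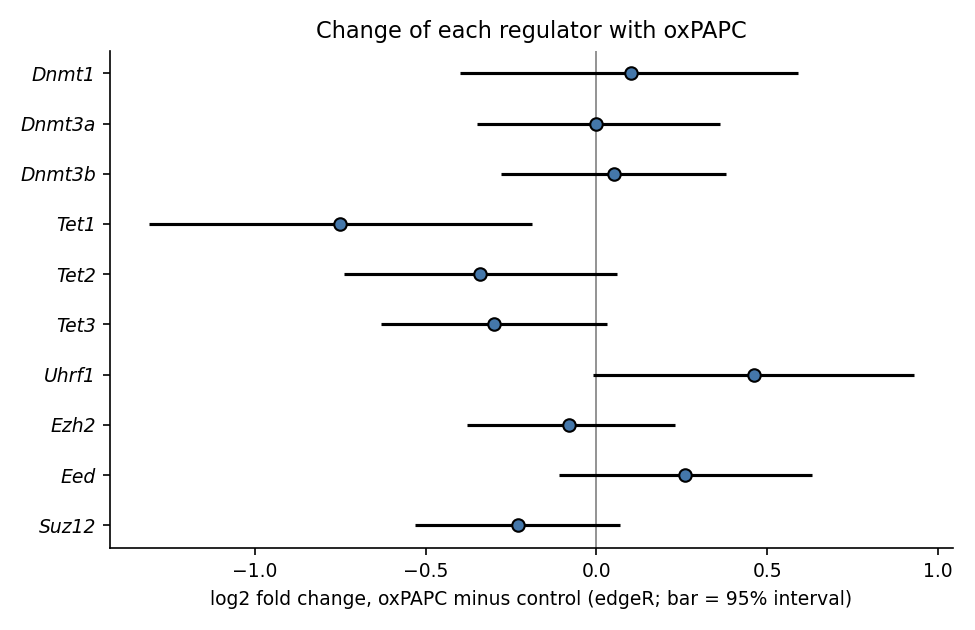
Log2 fold change of oxPAPC minus control for the 10 regulators (edgeR), with 95% intervals that are not adjusted for the number of genes. Only the interval of Tet1, -1.31 to -0.19, lies wholly on one side of 0.

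None of the 3 PRC2 core genes passed, and their groups overlapped. Ezh2, the methyltransferase of the complex, had 93.4, 91.2, 121 and 98.9 CPM in control replicates 1 to 4 and 89.3, 92.0, 96.1 and 106 CPM in oxPAPC replicates 1 to 4. Apart from control replicate 3 all libraries lay between 89.3 and 106 CPM. The log2 fold change was -0.08 ± 0.14 (SE, adjusted p in edgeR = 0.782), with an interval of -0.38 to 0.23. Suz12, the scaffold of the core, had 90.9, 115, 96.2 and 99.2 CPM in control and 85.5, 74.3, 95.9 and 86.2 CPM with oxPAPC, with a log2 fold change of -0.23 ± 0.14 (SE, adjusted p in edgeR = 0.311) and -0.088 with library size scaling. Eed, which binds the methylated histone tail and stimulates Ezh2, had 34.7, 25.2, 40.2 and 28.7 CPM in control and 36, 34.2, 34.6 and 49.8 CPM with oxPAPC. Its log2 fold change was 0.26 ± 0.17 (SE, adjusted p in edgeR = 0.362), and it was 0.117 without oxPAPC replicate 4, which stood apart from the 3 others. Of the exon bases of Eed, 6.8% are shared with E230029C05Rik, a noncoding gene on the opposite strand, and the labels do not state if reads were counted by strand.

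Per length of exon, the order of the levels was similar in the groups. In control libraries Dnmt1 (36.1 CPM per kilobase) and Uhrf1 (30.1) led, followed by Tet3 (20.9), Suz12 (20.3), Ezh2 (15.1), Dnmt3a (10.9), Eed (8.41), Dnmt3b (4.59), Tet2 (4.58) and Tet1 (0.488). Among neighbours in that order the ranges of Dnmt1 and Uhrf1, of Tet3 and Suz12, of Dnmt3a and Eed, and of Dnmt3b and Tet2 overlapped. With oxPAPC Uhrf1 (41.3 CPM per kilobase) and Dnmt1 (38.6) stood in the opposite order, as did Suz12 (17.3) and Tet3 (16.9), and both pairs again overlapped. The lengths are of all annotated exons of a gene, so a gene with long alternative exons, such as Dnmt3a with 16642 bases, gets a low value.

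Other genes of DNA methylation included a pair of clear changes. Of 25 tested partners and readers, 2 rose, 1 fell and 22 did not pass (12.0% called, with 13.3% over all genes). Gadd45b, a stress-induced protein reported to promote active demethylation, had 10.2 to 13.8 CPM in control and 37.5 to 40.5 CPM with oxPAPC. Its log2 fold change was 1.71 ± 0.15 (SE, adjusted p in edgeR = 1.12e-05). Gadd45g, of the same family, rose from 7.74 ± 2.38 to 16.4 ± 2.67 CPM (SD, n = 4 each, edgeR adjusted p = 0.00462). Gadd45a, also of this family, pointed the other way, with 5.21 to 8.46 CPM in control and 4.02 to 5.43 CPM with oxPAPC. Its change of -0.50 on the log2 scale stayed without a call, at 0.133 after adjustment in edgeR. Gadd45a was added after its values were seen. Cxxc5, a zinc finger protein that binds CpG, fell from 2.09 ± 0.902 to 0.758 ± 0.303 CPM (SD, n = 4 each, edgeR adjusted p = 0.0219), a call lost without control replicate 2 (0.0783) or oxPAPC replicate 4 (0.0673). Uhrf2, the paralog of Uhrf1, had 96.4 to 118 CPM in control and 73.8 to 81.9 CPM with oxPAPC and did not pass (log2 change -0.39, edgeR adjusted p = 0.0649); it was chosen after its values were seen.

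Of 10 tested further PRC2 genes 2 fell, none rose and 8 did not pass, where 13.3% of all genes were called. No test compared these shares. Ezh1, the second methyltransferase of PRC2, which is known for resting cells, fell from 39.2 ± 4.49 to 27.7 ± 3.30 CPM (SD, n = 4 each). The log2 fold change was -0.50 ± 0.14 (SE, adjusted p in edgeR = 0.0291). Ezh2 took 71.6% to 76.1% of the reads per length of Ezh2 and Ezh1 in control and 76.8% to 81.3% in oxPAPC libraries. These ranges did not overlap, but the gap between them was narrow. Over all pairs of tested genes with a count in every library, 19.7% had count ratios without overlap. The share of Ezh2 was computed after the data had been seen. Phf1, an accessory subunit, had a log2 fold change of -0.60 (edgeR adjusted p = 0.0385). Both calls were lost with library size scaling (0.284 and 0.194) and in 6 of 8 fits that left out a library (up to 0.0970 and 0.124). The Ezh1 call was kept without control replicate 1 or oxPAPC replicate 3, and the Phf1 call without control replicate 3 or oxPAPC replicate 3. The Phf1 call was also lost with the replicate block (0.0931) and limma-voom (0.0509). Jarid2, a subunit that guides PRC2 to its targets, had 97.1 to 99.3 CPM in control and 99.9 to 114 CPM with oxPAPC (log2 fold change 0.08, edgeR adjusted p = 0.718) and was named after its values were seen.

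Of 26 tested genes of Polycomb repressive complex 1, which ubiquitinates histone H2A, 3 fell, none rose and 23 did not pass. The share called was 11.5%, with 13.3% over all genes. Scmh1 and Rnf2, the latter a ubiquitin ligase of the complex, had log2 fold changes of -0.49 and -0.71 (edgeR adjusted p of 0.0284 and 0.0375). Both calls were lost with library size scaling (0.252 and 0.166) and when the replicate number entered as a block (0.0690 and 0.0641). Leaving out a library ended the Scmh1 call for control replicates 2 and 4 and oxPAPC replicates 1 and 4 (up to 0.104). It ended the Rnf2 call for oxPAPC replicates 1, 2 and 3 (up to 0.104) and for control replicate 3 (0.0886), which had 31.7 CPM where the other control libraries had 17.2 to 19.6. Rnf2 was also lost with quality weights (0.0509). Of 10 tested enzymes that oppose Polycomb, 2 fell, none rose and 8 did not pass, with 13.3% called over all genes. Whether 2 of 10 exceeds that share was not tested. Kdm6b, a demethylase that removes the PRC2 mark, had 88.9 to 154 CPM in control and 52.1 to 87.3 CPM with oxPAPC. Its log2 fold change of -0.93 ± 0.21 (SE, adjusted p in edgeR = 0.0109) stayed past the threshold in all 8 fits that left out a library (adjusted p up to 0.0417). Kmt2c, a methyltransferase acting at enhancers, had -0.45 (edgeR adjusted p = 0.0419), a call kept in 1 of those 8 fits, without oxPAPC replicate 3, and lost with library size scaling (0.356), RLE scaling (0.0555), no filter (0.0577) and the replicate block (0.0711).

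Genes that supply the enzymes with their substrates were read next. Of 22 tested genes of methyl donor and 2-oxoglutarate metabolism, 6 rose, 2 fell and 14 did not pass (36.4% called, with 13.3% over all genes, a difference that was not tested), and the median log2 fold change was 0.01. The 8 calls became 3 without oxPAPC replicate 4, 4 without control replicate 2, 5 without oxPAPC replicate 1 or with the replicate block, and 1 with the fold threshold of 1.5. Mat2a makes S-adenosylmethionine, the methyl donor of Dnmt and Ezh2 enzymes. It had 25.7 to 34.6 CPM in control and 72.8 to 88.9 CPM with oxPAPC, a log2 fold change of 1.42 ± 0.14 (SE, adjusted p in edgeR = 3.57e-05). The folate cycle genes Shmt1 and Mthfd1 rose from 14.7 ± 2.37 to 31.2 ± 7.19 CPM and from 34.4 ± 3.54 to 65.0 ± 21 CPM (SD, n = 4 each, edgeR adjusted p of 0.00147 and 0.00728). Idh3a, a subunit of the mitochondrial isocitrate dehydrogenase that makes 2-oxoglutarate for the citric acid cycle, rose with a log2 fold change of 0.66 (edgeR adjusted p = 0.0163), a call lost without control replicate 2 (0.0561) or oxPAPC replicate 4 (0.0526). The other 4 that passed were Mtrr and Mthfd1l, higher, and Idh3b and Idh2, lower, with log2 fold changes of 0.61, 0.53, -0.55 and -0.59. They were named after their values were seen, and leaving out a library ended the calls in 1, 6, 5 and 5 of 8 fits. All 4 calls were lost with the replicate block (0.0571, 0.0786, 0.0707 and 0.0659), and those of Idh3b and Idh2 with library size scaling (0.174 and 0.199). Idh3b belongs to the same enzyme as Idh3a, as does Idh3g, which stood at -0.41 without a call (0.115 after adjustment in edgeR). Subunits of the same enzyme thus pointed in opposite directions. Idh1 stood at -0.70, likewise without a call (0.0583). Idh3g and Idh1 were added after their values were seen.

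**Figure D4:**
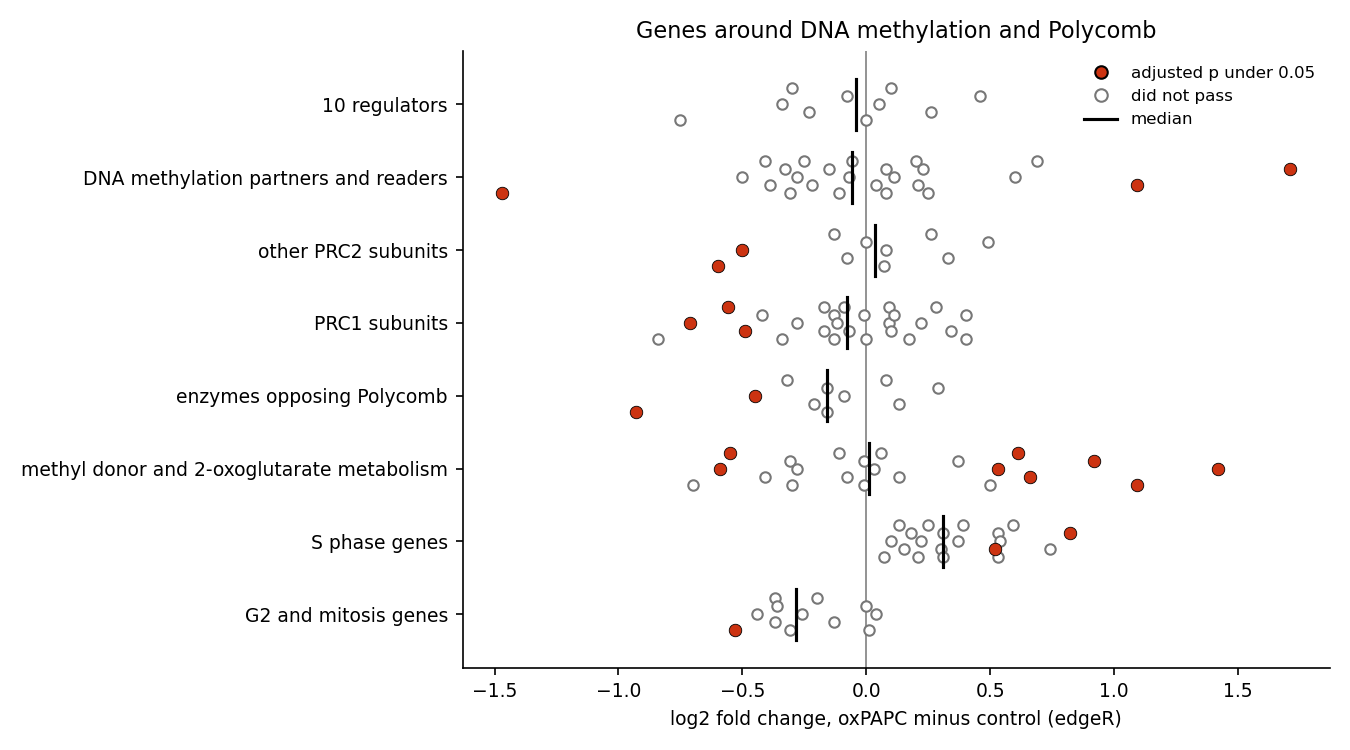
Log2 fold change of oxPAPC minus control (edgeR) for each tested gene of 8 lists; filled points passed at an adjusted p under 0.05 and black lines are medians. None of the 10 regulators is filled, the S phase genes all lie above 0 and most of the filled points among metabolic genes are above 0.

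Genes whose control by methylation or Polycomb is textbook knowledge were read beside the regulators. Of 6 genes demethylated in Treg cells, none passed, and the smallest p were those of Il2ra and Tnfrsf18 (log2 fold change 0.60 and 0.36, edgeR adjusted p of 0.0902 and 0.144). Il2ra passed with DESeq2 (adjusted p = 0.0279), voom quality weights (0.0498) and the GC and length offset (0.0354). Of 12 tested T cell genes known to be held down by Ezh2 or Dnmt enzymes 9 rose and none fell. The share called was 75.0%, with 13.3% over all genes, but this list was chosen with the high cytokine values known. The median log2 fold change of the list was 2.25. Its leading genes were Ifng, Il13, Tbx21 and Il5, with 1.13 to 4.05 CPM of Ifng in control and 55.1 to 92.3 CPM with oxPAPC. Of 10 tested imprinted genes none passed. The smallest p were those of Igf2r (log2 fold change -0.49, edgeR adjusted p = 0.105), which passed without oxPAPC replicate 3 (0.0240), with voom quality weights (0.0188) and with the filter at 5 CPM (0.0477), and of Gnas (-0.38, 0.364). Of 13 germline genes that DNA methylation silences, 2 were in the deposited counts and only Tdrkh was tested (log2 fold change 0.39, edgeR adjusted p = 0.210). The other, Ddx4, fell below the filter on low counts. In the fits with no filter, with DESeq2, and without control replicate 2 or oxPAPC replicate 1, 1 gene of this list passed. It was not Tdrkh, which passed in none of the fits.

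For each regulator, the genes whose deviations from the group means were most like its own over the 8 libraries were sought among 10277 genes with a mean of at least 5 CPM. With so many genes and 8 libraries, high values arise easily, and they are given as a description. Nacc1 and Ipmk were most like Dnmt1, Rrp1 and Bap1 most like Uhrf1, Usp21 and Arap1 most like Dnmt3a, and Hif3a and Plekhg5 most like Dnmt3b. Ncapd3 and Tsc1 were most like Tet1, Fas and Nufip2 most like Tet2, and Trim14 and Ankrd11 most like Tet3. Ifi203 and Rnf2 were most like Ezh2, Ndufa1 and Ube2e1 most like Eed, and Ptp4a2 and Megf9 most like Suz12. Of these, Fas (log2 fold change -0.88, edgeR adjusted p = 0.0130) and Rnf2 passed the test between the groups.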

How the data were processed

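RNA was measured in 8 libraries, 4 control and 4 oxPAPC, grouped by their labels. The authors deposited raw counts per gene and library, together with mean normalized counts (a signal), log2 fold changes with standard errors, linear fold changes, a test score and p-values, per the file headers. Per the submitters' processing notes, the build was GRCm38.p6 and the tools were STAR 2.7.8a, DESeq2 1.30.1 and featureCounts 2.0.2, with no word on strand. The deposited table gives Dnmt1 a log2 fold change but no p-value.

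Counts were tested with edgeR 4.0.16 in R 4.3.3 (TMM scaling, filterByExpr, quasi-likelihood test, Benjamini-Hochberg adjustment over 16434 genes, threshold 0.05). The standard error is the log2 fold change divided by the root of the F statistic. Levels per length used exon lengths of GENCODE M21, whose coordinates matched 99.1% of identifiers. Alternatives used DESeq2 1.42.0, limma 3.58.1, other scalings and filters, a fold threshold, a replicate block, and the omission of 2 abundant noncoding genes or of each library. A GC and length offset was added after seeing the data. On data simulated for this comparison over 16206 genes, the test recovered 8 of 67 genes altered 1.5-fold. It recovered 38 of 67 at 2-fold and 63 of 66 at 4-fold, and 6 of its 115 calls were false. No other genes were altered, so far fewer changed than were called in the data.

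The members and gene lists were chosen with earlier results of these data known. All members were named. Of each further list, at most the 4 genes with the smallest adjusted p past the threshold were named, or the 2 with the smallest p where none passed. A result that the rule would name is not reported here. For each member, the 2 genes of at least 5 CPM most alike by Pearson's r of log2 CPM (prior count 2) without group means were named. The share of all gene pairs with non-overlapping count ratios was counted as a background. Relations across libraries, count ratios, family shares and promoter motifs were chosen after the data had been seen.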

Additional observations from a re-analysis of the deposited data

Results flagged for a closer look

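In 3 of 88 groups of values searched, a library stood apart from the other 3 of its group by Dixon's criterion (critical value 0.829 for 4 libraries). Chance gives about 4. Among the 10 regulators this was Eed, with 49.8 CPM in oxPAPC replicate 4 and 34.2 to 36 CPM in the other oxPAPC libraries. Of the partner genes, Rnf2 had 31.7 CPM in control replicate 3 and 17.2 to 19.6 CPM in the other control libraries. Tyms had 93.6 CPM in oxPAPC replicate 4, with 71.7 to 74.6 CPM in the other oxPAPC libraries.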

How the results depend on the processing

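The 10 regulators gave 190 values under the alternatives. Of these, 175 kept direction and side of the threshold, 3 passed it and 12 changed sign without a call. The count of regulators called, 0, became 1 (Tet1) with the replicate block and 0 to 1 when each library was left out. The reversals were Dnmt1 at -0.074 with quality weights and -0.142 without oxPAPC replicate 3, Dnmt3a at -0.003 with the filter at 5 CPM, -0.074 with quality weights and -0.086 to -0.051 without control replicate 1 or 3 or oxPAPC replicate 3 (-0.082), Dnmt3b at -0.022, -0.006 and 0.000 without control replicate 3, control replicate 1 and oxPAPC replicate 3, and Ezh2 at 0.041 with library size scaling and 0.020 without control replicate 3. Over all fits that left out a library, the log2 fold changes ranged from -0.142 to 0.261 (Dnmt1), -0.086 to 0.082 (Dnmt3a), -0.022 to 0.198 (Dnmt3b) and -0.127 to 0.020 (Ezh2). The cause was not tested.

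Over all genes, the 2182 calls became 1453 with the replicate block, 402 with a fold threshold of 1.5 and 1390 to 2134 when a library was left out. The 1110 higher calls became 220 with the fold threshold, 1747 with the GC and length offset and 710 to 1057 when a library was left out. The 1072 lower calls became 458 with library size scaling (1154 higher), 708 with the block, 182 with the fold threshold and 680 to 1144 when a library was left out. The 30 calls in the gene lists became 10 with the fold threshold and 16 to 34 when a library was left out. The lowest counts came without control replicate 2, or for the lists without oxPAPC replicate 4. Fits without a library have fewer samples. Of 641 values of 34 named list genes, 528 kept their side of the threshold, 107 lost their call, 6 gained it and 0 changed sign.

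Replicate numbers were treated as names only, without pairing. Deviations from the group means correlated by 0.321, -0.0528, -0.368 and -0.0354 for numbers 1 to 4, and 2 of 8 libraries had their best match in the library of the same number. With 4 libraries a group, the simulation recovered few 1.5-fold changes. Far fewer genes changed in it than were called in the data, which makes the adjustment stricter. Its recovery may thus be lower than that of the test on the data. A missed call leaves changes within the printed intervals possible.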
